A study of Mus musculus with 17 samples.

Results

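Immortalised bone marrow-derived macrophages (iBMDMs) edited by CRISPR at Atf3 were compared with iBMDMs carrying a scramble CRISPR control. These libraries, labelled Atf3KO and Scramble, were chosen by their titles and genotype labels and are 4 of the 17 samples of the series, 2 a group. The titles of the Scramble libraries also carry the word zsGreen, which no title of an edited library carries. Its part in any value was not tested. The series was made to ask how the AP-1 transcription factors ATF3, JUN and JUND, which recognise the same DNA motif, come to have distinct functions in macrophages, and this comparison asks which mRNAs depend on ATF3. iBMDMs edited at Jun (JunKO) or Jund (JunDKO), 2 libraries each, are used below only as a second reference. All 4 groups are labelled male C57Bl/6EiJ cells at passage 3 to 8, vehicle treated and immortalised with BRAF(V600E) and Myc. Per the study's methods, cells that expressed Cas9 and EGFP were infected with a lentivirus that carried a pair of guides per target and sorted for its fluorescent marker. The sources used here do not state that single clones were grown, so an Atf3KO library may mix edited alleles. Nothing in the labels beyond the words biological replicates says that the libraries of a group came from separate cultures, so p-values below measure only the spread between these libraries.

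ATF3 is a basic leucine zipper protein that pairs with other AP-1 and CREB family members, is induced by many stresses and by Toll-like receptor signals, and is known both to repress and to activate genes. Several of the programmes described below have a master regulator of their own. SREBP2, encoded by Srebf2, turns on cholesterol synthesis when membrane sterol is low, while the liver X receptors (LXRs) turn on cholesterol efflux when sterol is high. NRF2, encoded by Nfe2l2, binds antioxidant response elements together with small Maf proteins and drives the synthesis of glutathione and thioredoxin, and BACH1 competes with it for the same elements.

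Values are RPKM, the read count over exons divided by exonic length and by the total of the library, and the step size of the values gave 4397166 and 7236846 reads in the Atf3KO libraries, 1929990 and 1711540 in Scramble, and 1553297 to 18444449 in the JunKO and JunDKO libraries. The Atf3KO libraries stood apart from all 6 others in the number of gene models with reads, 10425 and 10631 against 11884 to 12533, and still held fewer, 10273 and 10402 against 11583 to 12394, when every library was thinned to 1272105 exonic reads. They also stood apart by GC content. In the decile of genes lowest in GC (32.7% to 41.8%) the median difference from the Scramble mean, on the log2(RPKM + 1) scale, was -0.52 in Atf3KO replicate 1 and -0.997 in replicate 2, and in the decile highest in GC (57.8% to 70.9%) it was 0.59 and 1.36. The same medians lay between -0.20 and 0.44 in the JunKO and JunDKO libraries. Atf3KO replicate 2, the steeper, carries a later date in its title than every other iBMDM library, so values without it are the values within the shared date. It also had a trend with exonic length, from 0.40 in the decile of shortest genes to -0.23 in that of the longest. Smaller trends in the same direction ran from 0.235 to -0.098 in JunKO replicate 1 and from 0.217 to -0.027 in Atf3KO replicate 1.

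**Figure D1:**
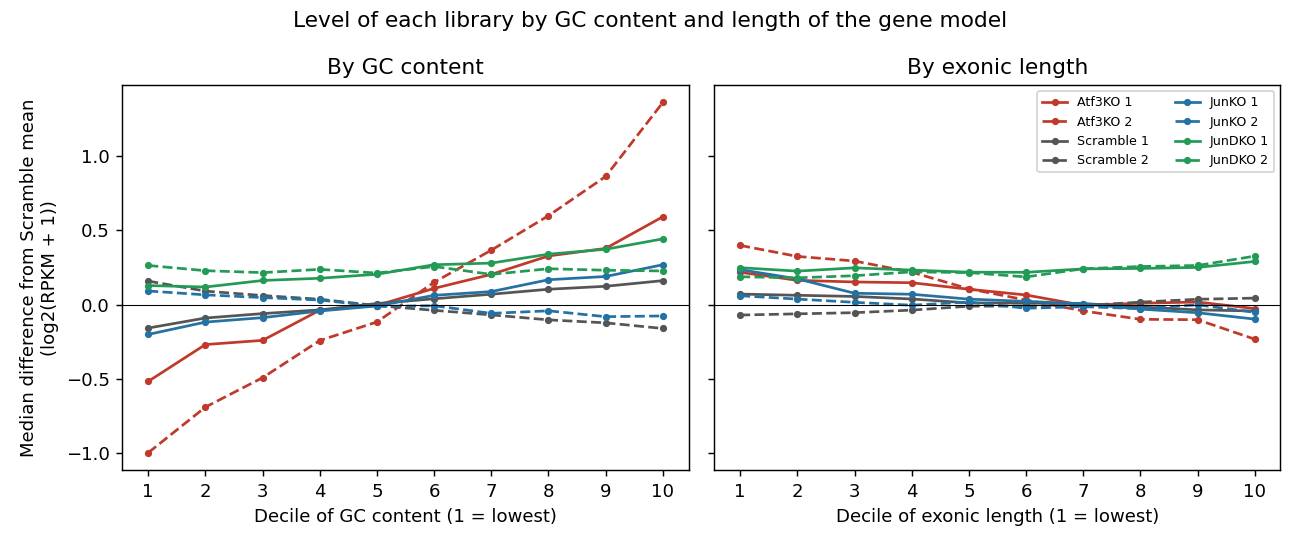
Each line is 1 of the 8 iBMDM libraries (dashed for replicate 2), and each point is the median difference from the mean of the Scramble libraries, in log2(RPKM + 1), over a decile of the tested genes ordered by GC content (left) or exonic length (right). The Atf3KO lines climb from -0.52 and -0.997 in the lowest decile by GC to 0.59 and 1.36 in the highest, outside the other libraries at both ends.

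Each comparison was therefore fitted with limma-trend on log2(RPKM + 1) in 2 ways, on the values as deposited and after a smooth GC trend was removed from each library. In what follows a gene rose or fell where its Benjamini-Hochberg adjusted p was under 0.05 in the same direction in both fits, and it is said to be called where it also changed at least 2-fold in both and reached a mean of 16 RPKM in either group. Fold changes are log2 values on the RPKM + 1 scale, which understates changes of low genes, and errors are standard errors with n = 2 libraries a group. Of 10414 tested gene models 10342 had a GC value. On that background 1517 genes (14.7%) rose and 1592 (15.4%) fell, 351 (3.39%) were called higher and 237 (2.29%) lower. In the fit as deposited alone, 2333 (22.4%) and 2258 (21.7%) had an adjusted p under 0.05 and 1309 genes were called, 828 higher (7.95%) and 481 lower (4.62%), so that 63.3% of calls were higher. After GC correction 759 genes were called, 462 higher (4.47%) and 297 lower (2.87%). That split depended on scaling and on the RPKM minimum, at 49.2% higher with equal library medians, 50.2% after quantile normalization and 49.3% without the minimum. List medians below are read against that of every tested gene, which was 0.07 on the deposited scale and -0.06 once library medians were made equal. Of the 588 genes called in both fits, 0 changed sign in any alternative tried. Across the alternatives that left out no single library, 567 to 588 kept an adjusted p under 0.05 in the same direction. These genes were selected in the same libraries, so their retention was largely set by that selection and is no independent support. The count of 4591 genes with an adjusted p under 0.05 as deposited was 2537 without Scramble replicate 2, the lowest of the settings that left out 1 library.

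In addition, some gene models went missing from these libraries. Of 6473 models with at least 5 RPKM in each of the 6 other iBMDM libraries, 25 were listed at 0 in both Atf3KO libraries, against 0 such models for Scramble, 0 for JunKO and 1 for JunDKO, where the model was S100a8. Among them Il7r, a cytokine receptor chain, was listed at 0 in both Atf3KO libraries and at 11.0 and 16.2 RPKM in Scramble, where the Scramble mean would have given 507 reads in Atf3KO. Models largely copied elsewhere in the genome were also more frequent among the called genes. In 37 of 351 genes called higher (10.54%) and 24 of 237 called lower (10.1%), at least 50% of the 31-base windows of the transcript had a copy elsewhere, against 469 of 9754 other tested genes (4.81%). A call requires a mean of 16 RPKM in a group, which the other tested genes need not reach. The shares were not matched for level, so they do not tie copies to a change. Genes over this limit that are named for their values are given below with that share, and its part in their values was not tested. The read length of single libraries is not given in the sources used here, and whether reads of copied models listed at 0 were lost in alignment was not tested.

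The targeted gene itself was measured at 154 and 169 RPKM in Atf3KO against 80.7 and 77.4 in Scramble, with 74.4 and 80.3 in JunKO and 84.6 and 87.7 in JunDKO. Both Atf3KO libraries were thus higher than all others. Atf3 (chromosome 1, 191170297 to 191183333 in the mm10 build, minus strand) had a log2 fold change of 1.02 ± 0.17 as deposited (limma-trend adjusted p = 0.00154) and of 0.85 ± 0.13 after GC correction (adjusted p = 8.48e-04). Reads over exons do not show whether the protein is made, because mRNA can still be made from an edited locus. The study checked the knockout by western blotting, which is not analysed here, and the groups are named by their labels.

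Both groups carried the markers of macrophages. All 12 macrophage markers were found, with sums of 25840 to 35020 RPKM in Atf3KO and 23340 to 25170 in Scramble, most of it Lyz2. Of these, 4 rose, Mertk (an engulfment receptor, 28.8 and 24.6 RPKM in Atf3KO against 7.04 and 8.27 in Scramble), Mrc1 (the mannose receptor, 16.4 and 12.2 RPKM in Atf3KO against 1.18 and 0.995 in Scramble), Fcer1g (1.27 and 1.08, as deposited and GC-corrected) and Cd68 (0.72 and 0.51), and the last lost its adjusted p as deposited without Scramble replicate 2 (adjusted p = 0.227 by limma-trend), without either Atf3KO library (0.0565 and 0.118), without either JunDKO library (0.0502 and 0.0509), at equal library medians, with no filter on low values and with only the libraries compared (0.0632, 0.0781 and 0.0718, in a range over all alternatives of 0.00167 to 0.227). Mertk measured 14.1 and 11.2 RPKM in JunKO and 36.1 and 36.8 in JunDKO, and Mrc1 14.0 and 14.3 in JunKO and 62.7 and 63.2 in JunDKO. Every edited library was thus above Scramble for both genes. Csf1r measured 513 and 582 RPKM in Atf3KO against 474 and 350.2 in Scramble, and Adgre1, which encodes F4/80, 678 and 479 RPKM in Atf3KO against 669 and 744 in Scramble. Markers of dendritic cells, mast cells and basophils, B cells, T and NK cells, erythroid cells and fibroblasts summed, for each cell type, to at most 0.15 RPKM in each Atf3KO library and at most 0.76 in each Scramble library. The summed neutrophil markers ranged from 33.3 to 51.7 RPKM in Atf3KO and from 36.5 to 37.95 in Scramble, with 8 of 12 at 0 in all 4 libraries, Mpo, Elane and Ly6g among them, and 1 marker, the cytokine receptor gene Csf3r, rose (10.6 and 11.6 RPKM in Atf3KO against 2.53 and 3.31 in Scramble). Csf3r measured 7.69 and 4.35 RPKM in JunKO and 14.1 and 12.5 in JunDKO, also above Scramble. Osteoclast markers summed to between 41.6 and 54.9 RPKM in Atf3KO and between 102 and 103 in Scramble, nearly all of it Ctsk, while Acp5, Calcr and Oscar were at 0 in all 4, and the part of these markers in other values was not tested. In bulk RNA, fewer cells of a type and less RNA per cell cannot be told apart.

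The genes that changed most are first described without regard to pathway. They are the 12 protein-coding genes with the largest change in each direction, ranked by the smaller of both fits' changes among genes called in both, and leaving out members of lists of AP-1, cell cycle, interferon and oxidase genes, which do not hold every gene of these kinds. F13a1, the A chain of coagulation factor XIII and a macrophage transglutaminase, measured 31.7 and 23.6 RPKM in Atf3KO against 1.22 and 0.609 in Scramble, with 24.0 and 20.1 in JunKO and 84.4 and 100.7 in JunDKO. Every edited group was above Scramble, and its change in Atf3KO was 3.91 ± 0.24 (limma-trend adjusted p = 2.73e-05). Fcrls, an Fc receptor-like scavenger receptor known from microglia, measured 110.0 and 84.9 RPKM in Atf3KO against 9.68 and 4.72 in Scramble and changed by 3.64 ± 0.30 (limma-trend adjusted p = 6.51e-05). Apoc2, an apolipoprotein that activates lipoprotein lipase, and the readthrough model Apoc4-apoc2 share exons and hence reads. Apoc2 measured 131 and 169 RPKM in Atf3KO against 8.21 and 8.23 in Scramble, with 24.8 and 17.5 in JunKO and 638 and 519 in JunDKO. At these 3 loci each JunDKO library was higher than each Atf3KO library.

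Cebpd, which encodes the transcription factor C/EBPδ (chromosome 16, 15887286 to 15889545), measured 33.8 and 94.3 RPKM in Atf3KO against 3.67 and 3.36 in Scramble, with 4.28 to 6.24 over the JunKO and JunDKO libraries, a change of 3.67 ± 0.39 as deposited (limma-trend adjusted p = 2.16e-04) and of 3.16 against the mean of JunKO and JunDKO (adjusted p = 1.52e-04). The other edited libraries lay near Scramble. Scand1, a SCAN domain gene, likewise measured 53.2 and 214 RPKM in Atf3KO against 0.685 and 2.32 in Scramble and 0.772 to 3.88 in the other edited libraries, but its change of 5.51 as deposited was 3.47 after GC correction. The kinetochore gene Spc24 and the ubiquitin-conjugating enzyme gene Ube2c, which acts in mitosis, were not in the cell cycle list and rose by 3.11 and 3.24. Of the remaining genes Rps29, Usmg5, Tpt1 and Ndufs5 are largely copied elsewhere, with a copy for 77.2%, 76.3%, 81.8% and 87.5% of their windows, and Tpt1 lost its adjusted p without Atf3KO replicate 2 (log2 fold change 2.12, limma-trend adjusted p = 0.131), without Scramble replicate 1 (2.50, adjusted p = 0.0882) and with no filter on low values (3.09, adjusted p = 0.0566), in a range over all alternatives of 1.0e-04 to 0.131.

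**Figure D2:**
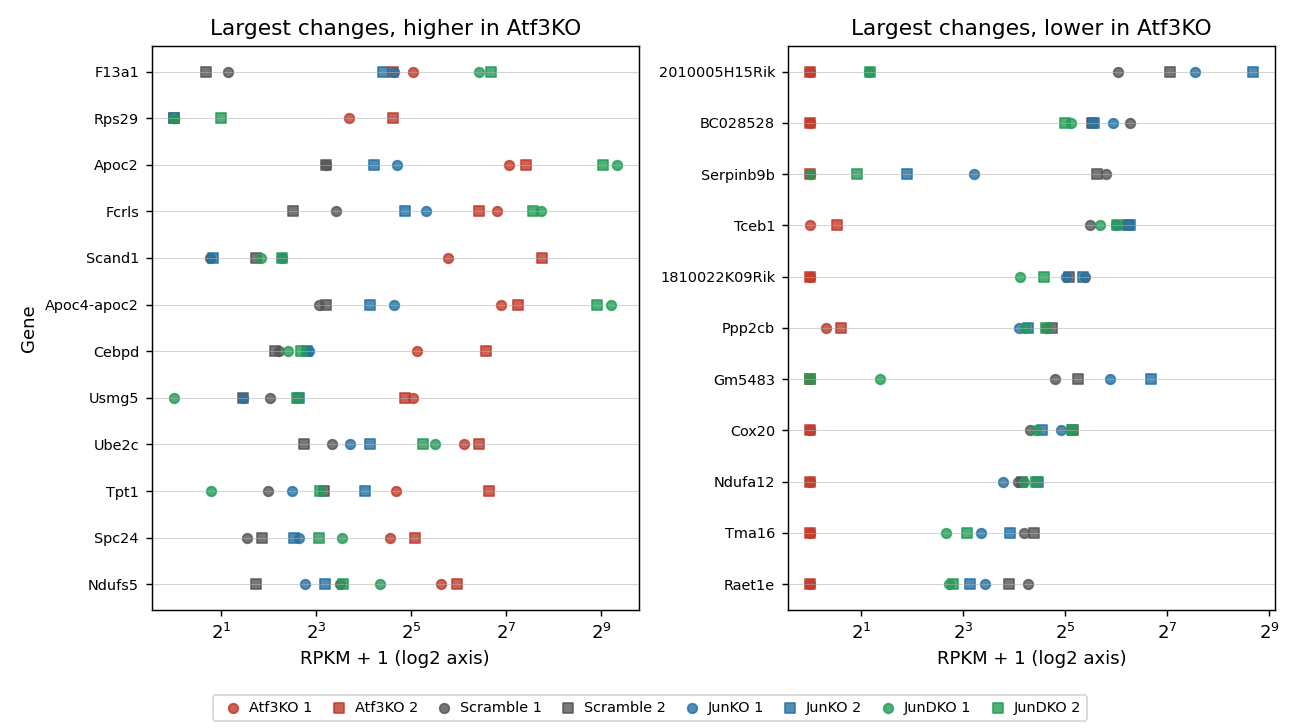
Each point is the value of 1 of the 8 iBMDM libraries, in RPKM + 1 on a log2 axis, for genes with the largest change in each direction. For Cebpd and Scand1 the Atf3KO points lie to the right of all others, while for F13a1, Apoc2 and Fcrls the JunDKO points lie furthest right, and in the right panel the Atf3KO points of 9 genes sit at a value of 0 RPKM in both libraries.

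Among the largest falls, Serpinb9b, a serpin gene, was listed at 0 in both Atf3KO libraries and at 54.8 and 48.1 RPKM in Scramble. Raet1e, a ligand of the activating receptor NKG2D, was listed at 0 and at 18.4 and 13.9 RPKM. The JunKO and JunDKO libraries were also below Scramble for both genes. Tceb1, which encodes elongin C, measured 0 and 0.437 RPKM in Atf3KO against 43.7 and 73.9 in Scramble and Ppp2cb, a catalytic subunit of protein phosphatase 2A, 0.249 and 0.529 RPKM in Atf3KO against 23.5 and 25.6 in Scramble. In the other edited libraries these genes of general function measured 50.2 to 76.2 and 16.1 to 23.6 RPKM. 2010005H15Rik, BC028528, 1810022K09Rik, Gm5483, Cox20, Ndufa12 and Tma16 were listed at 0 in both Atf3KO libraries. Of these, 1810022K09Rik and Ndufa12 have junctions between exons that are all copied elsewhere (100% of junction windows), as are 88.4% of all windows of 1810022K09Rik.

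To describe pathways, 51 gene lists were counted, each read against the background of 14.7% of tested genes that rose and 15.4% that fell. Among lists with at least 10 tested members cholesterol synthesis had the largest share higher and NRF2 antioxidant targets the largest share lower. Cytosolic chaperones, extracellular matrix and metalloproteinase genes, lipid efflux genes, cytokines, scavenger receptors and MAP kinase genes also had over 30% of members lower, while fatty acid synthesis, complement and chemokines had over 30% higher. For many lists, such as those of the tricarboxylic acid (TCA) cycle, autophagy, splicing factors, translation factors, ubiquitin ligases and nuclear pore, neither share exceeded its background by more than 1 percentage point.

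**Figure D3:**
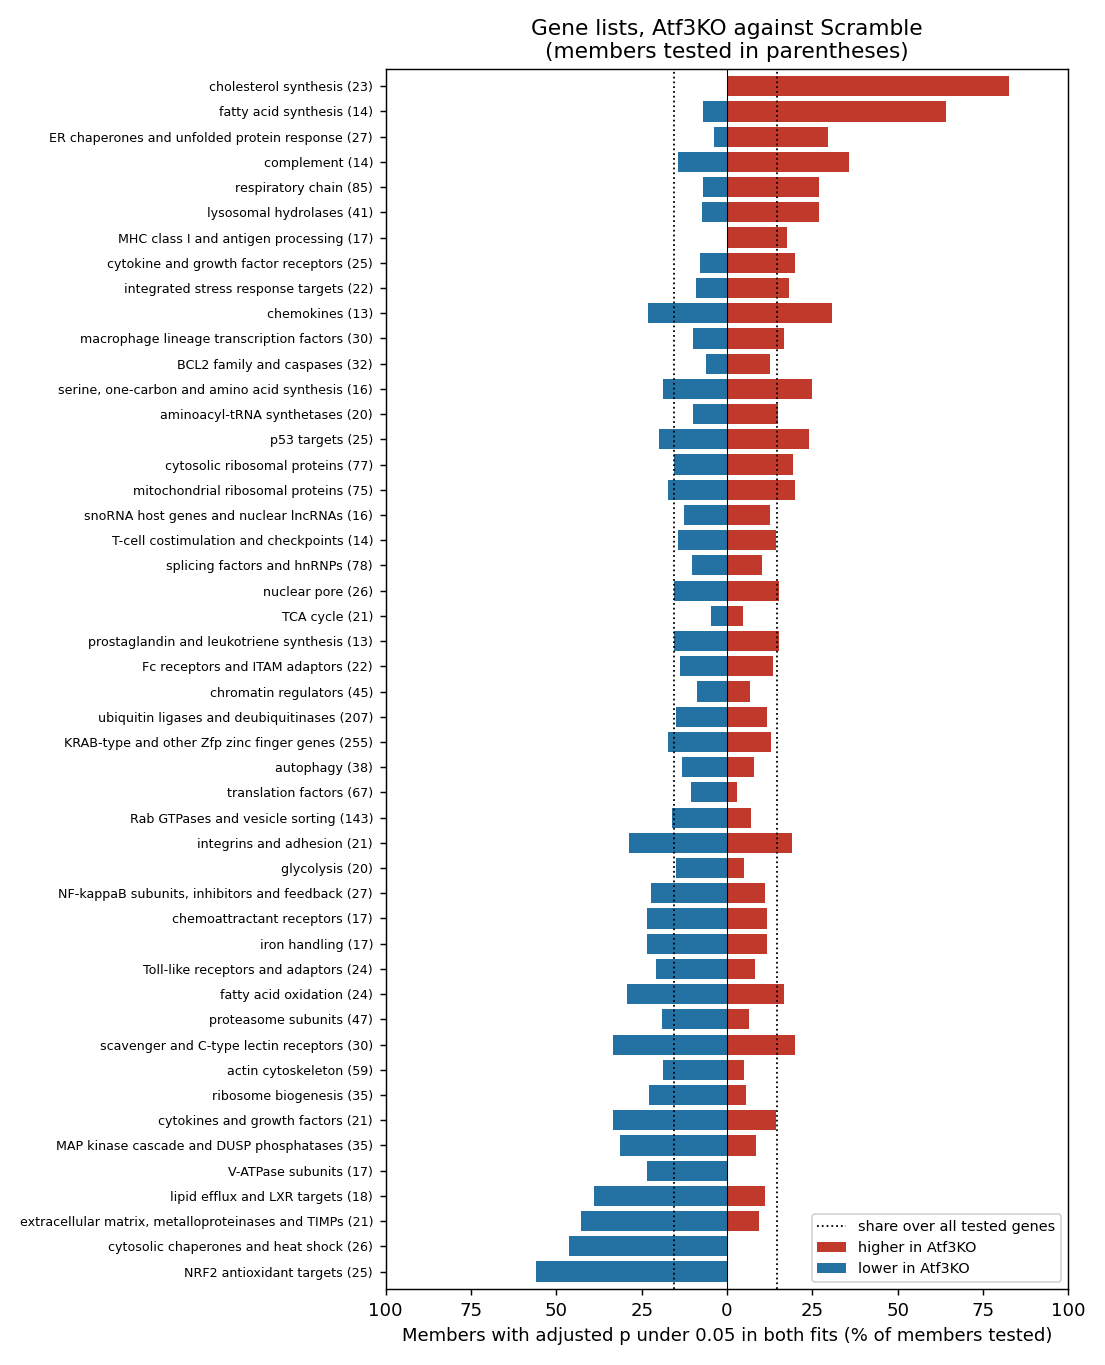
Bars give the percent of tested members of each gene list (number in parentheses) with an adjusted p under 0.05 in both fits, to the right for members higher in Atf3KO and to the left for members lower, and dotted lines give the same share over all tested genes, 14.7% and 15.4%. Lists with fewer than 10 tested members are left out. Cholesterol synthesis reaches 19 of 23 higher and NRF2 antioxidant targets 14 of 25 lower, while most lists end near the dotted lines.

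Genes of cholesterol synthesis were higher in Atf3KO at most steps of the pathway. Of 25 listed genes 23 were tested, and 19 rose, 0 fell and 14 were called, all higher. The median log2 fold change was 1.63 as deposited and 1.43 after GC correction, against 0.07 and 0.06 over all tested genes. Within the shared date, without Atf3KO replicate 2, 20 members had an adjusted p under 0.05 as deposited and the median was 1.52, and over all settings that left out 1 Atf3KO or Scramble library 18 to 22 members were higher and 0 lower.

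In the order of the pathway, Acat2, which joins acetyl-CoA units, measured 21.0 and 17.4 RPKM in Atf3KO against 3.26 and 0.849 in Scramble and rose by 2.84 ± 0.35 (limma-trend adjusted p = 4.37e-04). Hmgcs1, the HMG-CoA synthase (chromosome 13, 119690351 to 119708260), measured 50.4 and 33.1 RPKM in Atf3KO against 15.5 and 18.3 in Scramble and rose by 1.23 ± 0.22, with 1.72 after GC correction. Both Atf3KO libraries were above both Scramble libraries for each of these. In the mevalonate steps Mvk (2.69), Pmvk (1.63) and Mvd (2.31) rose. Fdps, which makes farnesyl pyrophosphate, had the highest level of the list with Msmo1, and 81.7% of its windows have a copy elsewhere. It measured 78.0 and 81.7 RPKM in Atf3KO against 22.3 and 12.3 in Scramble, a rise of 2.20 ± 0.26 (limma-trend adjusted p = 3.71e-04).

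In the sterol steps Fdft1, Sqle and Lss rose by 0.81, 1.03 and 1.09. Cyp51, the lanosterol demethylase, measured 37.7 and 32.4 RPKM in Atf3KO against 8.24 and 7.27 in Scramble, and its rise of 2.04 ± 0.20 was 2.42 ± 0.15 after GC correction (limma-trend adjusted p = 1.67e-05). Nsdhl, a sterol dehydrogenase of the later removal of methyl groups, measured 25.1 and 18.1 RPKM in Atf3KO against 3.76 and 4.50 in Scramble and rose by 2.13 ± 0.25 (limma-trend adjusted p = 3.47e-04). The groups of neither gene overlapped. Msmo1, the sterol oxidase that acts with Nsdhl, measured 57.6 and 37.3 RPKM in Atf3KO against 27.7 and 36.7 in Scramble, so the lower Atf3KO library lay close to the higher Scramble library, and it passed only after GC correction (1.13 ± 0.15, limma-trend adjusted p = 4.48e-04). Hsd17b7 passed likewise (0.34 and 0.84, as deposited and GC-corrected). Tm7sf2 (2.13), Ebp (1.14) and Dhcr7 (1.79), which carry out late steps, rose, and Sc5d, the desaturase between them, passed in neither fit (-0.48 and 0.03).

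The sensors and carriers of the list moved with its enzymes. Srebf2, which encodes SREBP2, measured 41.1 and 69.4 RPKM in Atf3KO against 13.6 and 9.89 in Scramble and rose by 2.11 ± 0.32 (limma-trend adjusted p = 0.00113). Insig1, the sterol-induced retention factor of the SREBP complex, rose by 1.25 ± 0.20. Stard4, a cytosolic sterol carrier, measured 40.7 and 27.8 RPKM in Atf3KO against 7.48 and 5.69 in Scramble, a change of 2.20 ± 0.25 as deposited and 2.73 ± 0.21 after GC correction (limma-trend adjusted p = 3.60e-05). All 3 of these genes are themselves known targets of SREBP2.

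Fatty acid synthesis, driven in part by the related factor SREBP1c from Srebf1, moved with it. Of 14 tested members 9 rose and 1 fell, with medians of 0.92 as deposited and 0.87 after GC correction. Fasn, the fatty acid synthase, measured 68.5 and 105 RPKM in Atf3KO against 28.02 and 18.3 in Scramble and rose by 1.86 ± 0.31 (limma-trend adjusted p = 0.00172), which was 1.13 after GC correction. Fads1, a desaturase of polyunsaturated fatty acids, measured 47.0 and 37.5 RPKM in Atf3KO against 13.4 and 14.6 in Scramble and rose by 1.52 ± 0.20 (limma-trend adjusted p = 6.02e-04). Elovl1 (1.37), Fads2 (2.31), Scd2 (0.93), Acaca (0.90, with 76.6% of windows copied), Elovl6 (0.92), Acly (0.60) and Srebf1 (1.53) rose as well. Acss2, which makes acetyl-CoA from acetate, was the member that fell, at 1.21 and 1.62 RPKM in Atf3KO against 17.3 and 14.1 in Scramble. Scd1, Elovl5, Me1 and Mid1ip1 passed in at most 1 fit.

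**Figure D4:**
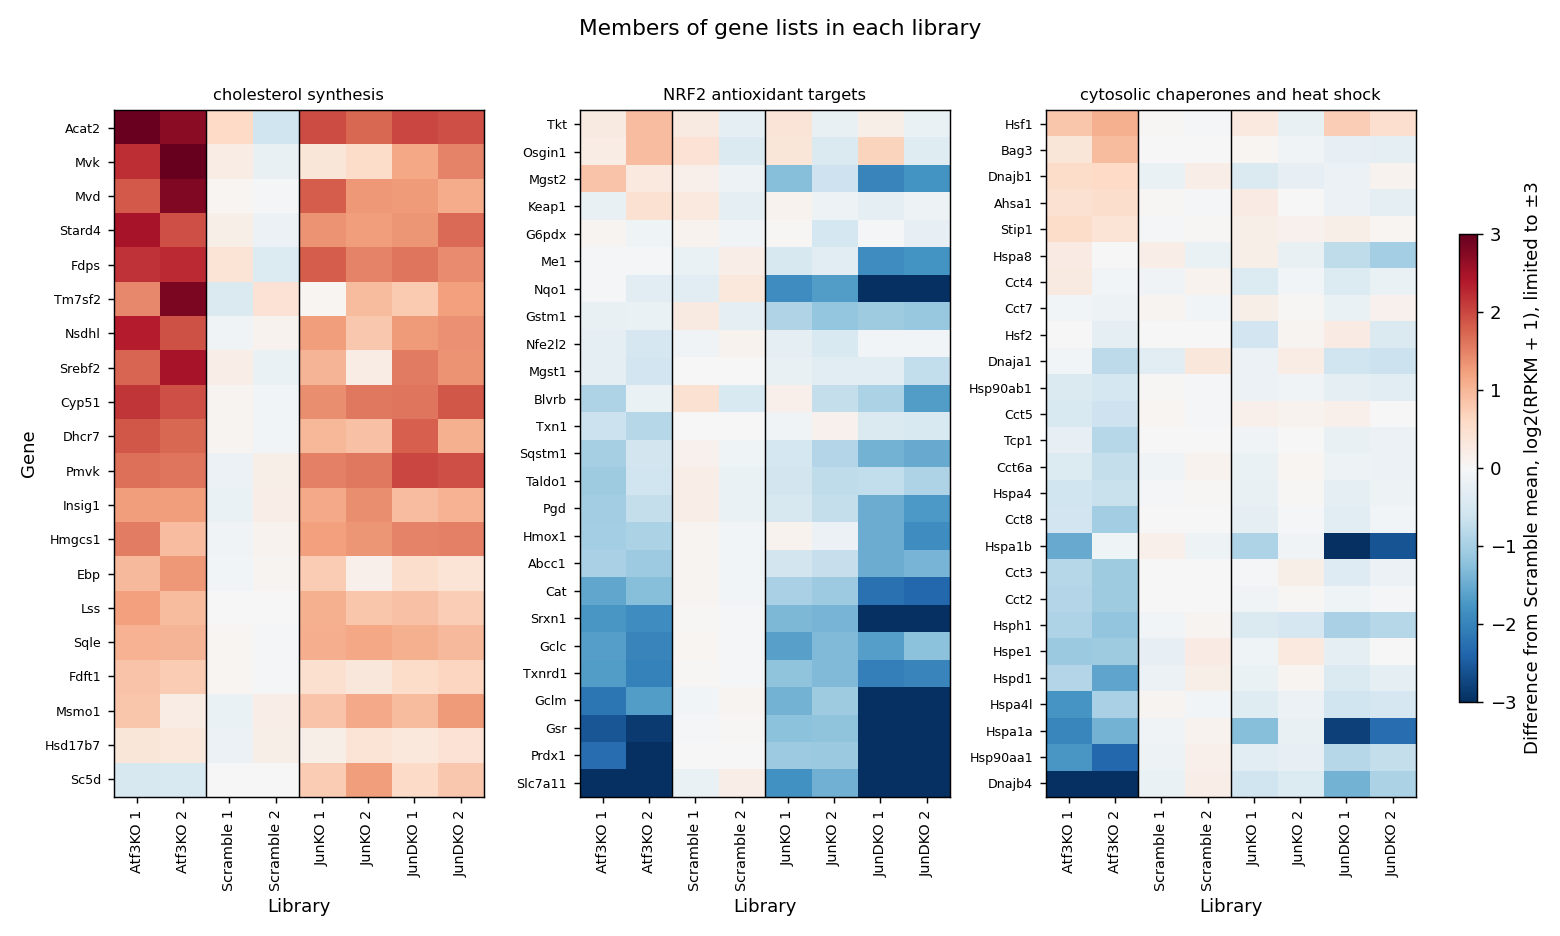
Each cell is the difference of a library from the mean of the Scramble libraries, in log2(RPKM + 1) and limited to ±3, for tested members of 3 gene lists (rows) in the 8 iBMDM libraries (columns). Cholesterol genes shown other than Sc5d are red in both Atf3KO columns, NRF2 targets from Txn1 downwards are blue in both, and Dnajb4 and Hsp90aa1 are the darkest chaperone rows there. The JunKO and JunDKO columns, which are set against the same Scramble libraries, are red for every cholesterol gene shown and blue for most NRF2 targets from Sqstm1 downwards.

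Because every comparison with Scramble shares those 2 libraries, the Atf3KO libraries were also compared with the mean of JunKO and JunDKO, where 1560 genes (15.1%) were higher and 1799 (17.4%) lower at an adjusted p under 0.05 in both fits. Here 7 of 23 cholesterol genes were higher and 1 was lower, with a median of 0.60, and 7 of 14 fatty acid genes were higher and 0 lower, with a median of 0.69. The members that were higher included Acat2, Ebp, Mvk, Nsdhl, Srebf2 and Stard4, and the one that was lower was Sc5d, at 7.31 and 7.46 RPKM in Atf3KO against 16.4 to 26.8 over the JunKO and JunDKO libraries. Both comparisons use the Atf3KO libraries. Cyp51 measured 21.9 and 25.0 RPKM in JunKO and 25.8 and 30.99 in JunDKO, above the 8.24 and 7.27 of Scramble. Fdps measured 61.4 and 48.7 RPKM in JunKO and 52.7 and 46.3 in JunDKO, against 22.3 and 12.3 in Scramble. A level above Scramble was therefore not confined to Atf3KO in these genes.

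A short sequence close to the sterol regulatory element, TCACNCCA or its reverse complement, was looked for in the promoters of RefSeq (250 bases before to 50 after the start of each gene, GRCm38.p6), where it stood in 4.97% of all 27024 promoters. Only 16 of the 23 cholesterol genes had a promoter there, so that no share over the list is given. The windows are shown for Hmgcs1 and Srebf2 because they encode an early enzyme and the regulator of the pathway, and were picked after the matches were seen. Capitals mark the match, each window is read in the direction of its gene, and positions count from the start base as 0.
Hmgcs1 SRE (chr13:119690204-119690231, plus strand, motif at -137 to -130): cgtcaccgtcTCACCCCActtcccaggt
Srebf2 SRE (chr15:82147097-82147124, plus strand, motif at -162 to -155): tgacgcaccaTCACCCCAtgagccgctt
A match is a description of letters and not of a bound site.

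Targets of NRF2 were lower in Atf3KO. Of 26 listed genes 25 were tested, and 14 fell, 0 rose and 9 were called, all lower. The median was -0.78 as deposited and -1.18 after GC correction. Within the shared date 14 members were lower and 0 higher as deposited, with a median of -0.96. Without Scramble replicate 1 the count as deposited was 11, and over the other settings that left out 1 Atf3KO or Scramble library it was 13 to 17. Nfe2l2 itself, the gene of NRF2, was not among them (-0.40 and -0.16, as deposited and GC-corrected), nor was Keap1, the adaptor that holds NRF2 in check (0.12 and -0.70). Bach1, the competitor of NRF2, fell, at 6.14 and 5.597 RPKM in Atf3KO against 18.1 and 19.5 in Scramble (-1.53 ± 0.20, limma-trend adjusted p = 5.26e-04).

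The members are given by role, from cystine uptake and glutathione onwards. Slc7a11, the cystine transporter (chromosome 3, 50364936 to 50443613), measured 8.00 and 5.65 RPKM in Atf3KO against 63.9 and 85.4 in Scramble and fell by a log2 change of -3.28 ± 0.26 (limma-trend adjusted p = 5.26e-05). Both subunits of the enzyme that starts glutathione synthesis fell, Gclm at 83.4 and 118 RPKM in Atf3KO against 359 and 405 in Scramble (-1.93 ± 0.22, limma-trend adjusted p = 2.79e-04) and Gclc with a change of -1.81 ± 0.22. Gsr, glutathione reductase, measured 11.9 and 9.46 RPKM in Atf3KO against 73.7 and 76.3 in Scramble, a change of -2.71 ± 0.22 (limma-trend adjusted p = 6.39e-05). The 2 Atf3KO libraries were close to each other and far below Scramble in all 4. Abcc1, which exports glutathione conjugates, changed by -1.03 and also fell.

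In the thioredoxin branch Txnrd1, thioredoxin reductase, changed by -1.85 ± 0.18, Srxn1, which repairs peroxiredoxins, by -1.80 ± 0.17, and Txn1 by -0.75 ± 0.18, and all fell. Prdx1, an abundant peroxidase and the gene of the highest level in the list, measured 763 and 409 RPKM in Atf3KO against 3769 and 3651 in Scramble and fell, with a log2 change of -2.73 ± 0.27 (limma-trend adjusted p = 1.38e-04). Of the windows of Prdx1, 72.4% have a copy elsewhere in the genome, and the part of that in its value was not tested. Cat, catalase, changed by -1.42 ± 0.18 and fell, and Hmox1, haem oxygenase, (-0.99), Sqstm1 (-0.78), Pgd (-0.88) and Taldo1 (-0.83) fell by less than 2-fold as deposited. Genes of the list that passed in at most 1 fit included Nqo1 (-0.18 and 0.08, as deposited and GC-corrected), Me1 (-0.04 and 0.21), G6pdx (-0.02 and -0.14), Gstm1 (-0.20 and -0.49) and Mgst2 (0.57 and 0.85), so the fall did not extend to every classical target.

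Against the mean of JunKO and JunDKO the same libraries were not lower in this list, with 4 of 25 members higher and 0 lower in both fits and a median of 0.23. The members that were higher were Nqo1, Mgst2, Me1 and Gstm1. Nqo1, a quinone reductase often used to read out NRF2, measured 9.13 and 7.43 RPKM in Atf3KO against 7.38 and 12.1 in Scramble, and 0 to 2.27 over the JunKO and JunDKO libraries. The other edited lines were themselves below Scramble in many of the genes that fell. Slc7a11 measured 20.4 and 26.5 RPKM in JunKO and 0.629 and 0.877 in JunDKO, Gclm 143 and 181 in JunKO and 41.2 and 45.0 in JunDKO, and Gsr 31.6 and 32.1 in JunKO and 2.91 and 1.90 in JunDKO. Each JunDKO library thus lay below Atf3KO in these 3 genes, and JunKO between Atf3KO and Scramble.

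Antioxidant response elements were looked for as TGACNNNGC or its reverse complement. They stood in 9 of 21 NRF2 targets with a promoter in the table (42.9%), against 17.3% of 8421 tested genes with one and 14% of all promoters. The windows are shown for Gclm and Prdx1 as called genes of the list. Both matches, in capitals, are the reverse complement, and that of Prdx1 holds the AP-1 element TGAGTCA within it. Of the 14 genes that fell, 10 had a promoter in the table and 5 of them a match.
Gclm ARE (chr3:122245413-122245441, plus strand, motif at -134 to -126): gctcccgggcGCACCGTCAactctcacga
Prdx1 ARE (chr4:116685456-116685484, plus strand, motif at -133 to -125): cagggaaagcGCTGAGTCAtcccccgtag

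**Figure D5:**
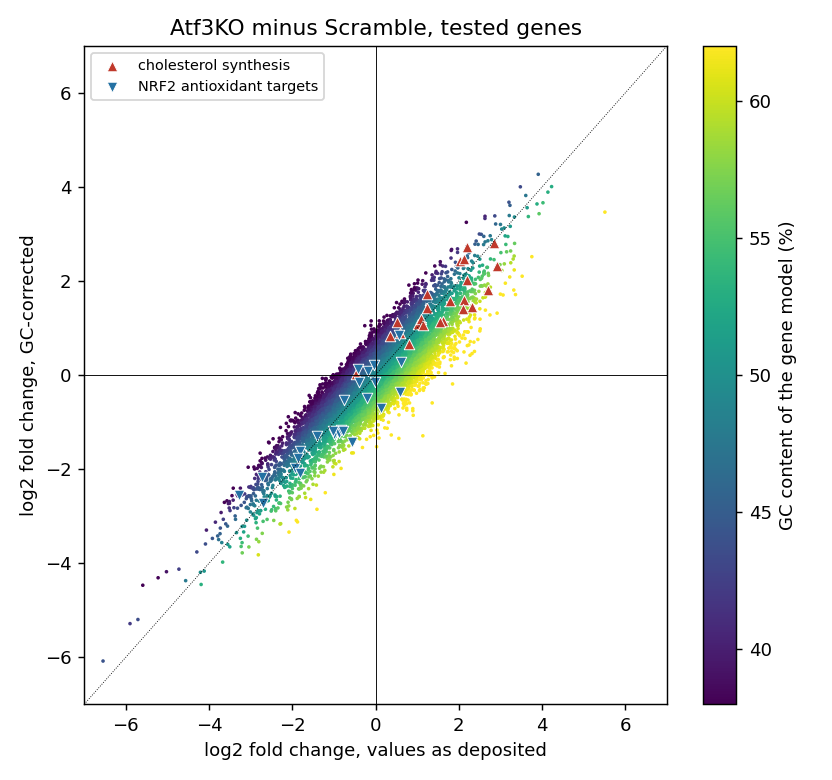
Each point is a tested gene, with its log2 fold change in Atf3KO against Scramble as deposited (x axis) and after GC correction (y axis), coloured by the GC content of its gene model. Genes of low GC lie above the dotted line of equality and genes of high GC below it, while cholesterol genes (red) and NRF2 targets (blue) lie mostly in opposite corners in both fits, with medians of 1.63 and 1.43 against -0.78 and -1.18.

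Carbohydrate metabolism depended more on the GC correction. Of 20 glycolysis genes 3 were lower and 1 higher as deposited, and 12 lower and 1 higher after GC correction, against backgrounds of 21% lower and 22.2% higher in the corrected fit, with medians of -0.20 and -0.54. As deposited, 1 was lower without either Scramble library and 2 without Atf3KO replicate 1, with medians of -0.022 without Scramble replicate 1, -0.308 without Scramble replicate 2, -0.0361 without Atf3KO replicate 1 and -0.341 without Atf3KO replicate 2. Slc2a1, the glucose transporter GLUT1, was the member called in both, at 24.5 and 32.5 RPKM in Atf3KO against 85.8 and 72.3 in Scramble (-1.45 ± 0.21, limma-trend adjusted p = 8.33e-04). Aldoa and Pkm had the highest levels of the list. Aldoa measured 1195 and 1752 RPKM in Atf3KO against 1572 and 1369 in Scramble and changed by -0.02 as deposited and -0.66 after GC correction. Pkm measured 1061 and 1421 RPKM in Atf3KO against 1575 and 1379.9 in Scramble and changed by -0.26 as deposited and -0.82 after GC correction, so that the groups of both genes overlapped as deposited. Of the windows of Pkm, 69.2% have a copy elsewhere. Against JunKO and JunDKO 5 members were higher and 0 lower in both fits. Of 9 pentose phosphate genes 2 fell, Pgd (-0.88 and -1.22) and Taldo1 (-0.83 and -1.16), and Prps1 rose (1.05 and 1.43), but lost its adjusted p without Atf3KO replicate 1 (log2 fold change 0.72, limma-trend adjusted p = 0.0693) and without Scramble replicate 1 (0.79, adjusted p = 0.0948), with a range of 6.67e-04 to 0.0948 over all alternatives.

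In serine and one-carbon synthesis 4 of 16 tested genes rose and 3 fell. Aldh18a1, which makes proline precursors, measured 34.05 and 34.8 RPKM in Atf3KO against 13.3 and 11.5 in Scramble and Phgdh, the first enzyme of serine synthesis, 22.5 and 43.1 RPKM in Atf3KO against 12.6 and 5.98 in Scramble, and both were called. Of the windows of Phgdh, 85.7% have a copy elsewhere. Shmt2 rose (1.53 and 0.90, as deposited and GC-corrected) while Psat1 measured 56.1 and 47.5 RPKM in Atf3KO against 59.0 and 53.3 in Scramble. In fatty acid oxidation 4 of 24 rose and 7 fell, among which Etfdh, which passes electrons from this pathway to ubiquinone, measured 1.40 and 1.52 RPKM in Atf3KO against 17.4 and 20.4 in Scramble. Acadvl fell (-1.38 and -1.68) and Cpt2 rose (1.31 and 1.12), which lost its adjusted p after GC correction without Atf3KO replicate 1 (0.91, limma-trend adjusted p = 0.0526, in a range of 0.00177 to 0.0526 over all alternatives). Of iron genes 2 of 17 rose, Trf (transferrin) at 69.0 and 73.1 RPKM in Atf3KO against 29.3 and 28.5 in Scramble among them, and 4 fell, while Fth1, the ferritin heavy chain, measured 12135 and 15271 RPKM in Atf3KO against 22402 and 17582 in Scramble.

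Stress programmes other than that of NRF2 moved in different directions. Of 26 tested chaperone and heat shock genes, a mainly cytosolic list, 12 fell and 0 rose, with medians of -0.56 and -0.42. As deposited alone 14 were lower and 4 higher, and after GC correction 13 and 1. Without 1 Atf3KO or Scramble library 9 to 15 members were lower and 0 to 3 higher over both fits, with 9 lower as deposited without Scramble replicate 2. Hsp90aa1, the inducible HSP90, measured 30.9 and 19.9 RPKM in Atf3KO against 95.5 and 119.6 in Scramble and changed by -2.06 ± 0.23 (limma-trend adjusted p = 2.78e-04), although 89.4% of its windows have a copy elsewhere. Dnajb4, an HSP40, measured 0.715 and 0.272 RPKM in Atf3KO against 13.7 and 18.4 in Scramble, a change of -3.51 ± 0.28 (limma-trend adjusted p = 5.26e-05). Hspa1a (-1.68), Hsph1 (-1.04), the mitochondrial pair Hspd1 (-1.22) and Hspe1 (-1.10), and 3 of the chaperonin genes, Cct2, Cct3 and Cct5 (-0.97, -0.95 and -0.53), fell too. Copies elsewhere were found for 69.4% of the windows of Hspa1a, 76.7% of Hspd1 and 60.4% of Hspe1. The abundant constitutive Hspa8, with 91.7% of windows copied, measured 617 and 522 RPKM in Atf3KO against 599.8 and 448 in Scramble and was not among them. Hsf1, the regulator of the response, passed in neither direction in both fits (0.95 and 0.38). Against JunKO and JunDKO 4 of the 26 were higher and 7 lower in both fits, with medians of -0.31 and -0.09.

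Chaperones of the endoplasmic reticulum (ER) did not fall with them. Of 27 tested members of the ER chaperone and unfolded protein response list 8 rose and 1, the sensor kinase gene Eif2ak3, fell (-0.62 and -0.72), with medians of 0.30 and 0.36. Herpud1, which acts in ER-associated degradation, measured 149 and 173 RPKM in Atf3KO against 44.5 and 52.1 in Scramble, a rise of 1.72 ± 0.20 (limma-trend adjusted p = 3.06e-04). Sdf2l1, an ER chaperone cofactor, measured 287 and 493 RPKM in Atf3KO against 116 and 80.0 in Scramble and rose by 1.96 ± 0.27 (limma-trend adjusted p = 7.55e-04). Derl3 (2.57 and 1.89, as deposited and GC-corrected), Hyou1 (0.66 and 0.34), Dnajb11 (0.80 and 0.69), Pdia4 (0.58 and 0.69), Edem2 (0.79 and 0.52) and Sel1l (0.61 and 0.81) rose as well, of which Derl3 lost its adjusted p after GC correction without Atf3KO replicate 1 (log2 fold change 1.84, limma-trend adjusted p = 0.056, in a range of 4.10e-04 to 0.056 over all alternatives). The main ER chaperones did not, since Hspa5, which encodes BiP, measured 1627 and 1253 RPKM in Atf3KO against 1631 and 1933 in Scramble and Calr 1397 and 1343 RPKM in Atf3KO against 1348 and 1521 in Scramble. Against JunKO and JunDKO 12 of the 27 were higher and 1 lower in both fits. Without Scramble replicate 2, 4 members were higher as deposited in place of 10.

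The integrated stress response, which runs through ATF4, a partner of ATF3, was near the background, with 4 of 22 tested targets that rose and 2 that fell. Gdf15, a stress cytokine, measured 13.9 and 47.2 RPKM in Atf3KO against 2.40 and 1.08 in Scramble and Ddit4, an inhibitor of mTORC1, 11.8 and 22.6 RPKM in Atf3KO against 2.16 and 2.43 in Scramble, and both were called higher. Atf4 (0.77 and 0.56, as deposited and GC-corrected) and Slc7a5 (1.26 and 0.72) rose. Ddit3 (1.14 and 0.65), Sesn2 (1.46 and 0.57) and Trib3 (-0.41 and -1.14) did not pass in both fits, and Slc7a11, which this list shares with NRF2 targets, fell. Of 25 p53 targets 6 rose and 5 fell. Sesn1 measured 77.2 and 58.5 RPKM in Atf3KO against 25.7 and 25.4 in Scramble and the pro-apoptotic Bbc3, which encodes PUMA, 20.2 and 62.01 RPKM in Atf3KO against 4.73 and 4.15 in Scramble, both called higher, while Plk2 was called lower at 7.19 and 4.46 RPKM in Atf3KO against 27.2 and 23.3 in Scramble. Bcl2l11, the gene of BIM and another killer of the BCL2 family, was called at 16.9 and 19.6 RPKM in Atf3KO against 8.21 and 9.01 in Scramble.

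In lipid handling, genes of efflux fell more often than they rose, unlike those of synthesis. Of 18 tested lipid efflux genes and LXR targets 7 fell and 2 rose, with medians of -0.29 and -0.25, and -0.139 as deposited without Atf3KO replicate 2. Abca1, the main cholesterol exporter of macrophages (chromosome 4, 53030789 to 53159895), measured 12.1 and 9.79 RPKM in Atf3KO against 37.0 and 35.9 in Scramble and fell by a log2 change of -1.66 ± 0.19 (limma-trend adjusted p = 3.17e-04). Cd36, a receptor for oxidised lipoprotein and fatty acids, measured 12.3 and 8.29 RPKM in Atf3KO against 110.3 and 156 in Scramble, a change of -3.57 ± 0.23 (limma-trend adjusted p = 2.92e-05). Both Atf3KO libraries were far below both Scramble libraries. Apoe (-2.28 and -3.16, as deposited and GC-corrected), Abcg1 (-0.89 and -1.10), Mylip (-1.10 and -1.13), Lpcat3 (-0.72 and -0.81) and Lpl (-0.92 and -0.42) fell as well. Apoc2 and Nr1h2, which encodes LXRβ (1.61 and 0.59), rose, and Nr1h3, which encodes LXRα, passed in at most 1 fit (0.68 and 0.09).

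Receptors on the macrophage surface were split. Of 30 tested scavenger and C-type lectin receptors 6 rose and 10 fell. Among those that fell were the lectin genes Clec7a (Dectin-1) at 17.2 and 9.05 RPKM in Atf3KO against 42.9 and 47.0 in Scramble, Clec4e (Mincle, -1.72 and -0.92, as deposited and GC-corrected) and Clec4d (-1.42 and -0.66), and the amplifying receptor Trem1 (-1.93 and -1.85). Scarb1, the receptor for high-density lipoprotein, was called higher at 34.8 and 60.05 RPKM in Atf3KO against 15.9 and 12.1 in Scramble, and Mrc1, Clec10a (2.06 and 1.94) and Stab1 (1.16 and 0.52) rose. For Mrc1, each JunKO and JunDKO library was also above Scramble. Marco measured 574 and 683 RPKM in Atf3KO against 557 and 503 in Scramble. Fpr2, a formyl peptide receptor, was called lower at 16.2 and 8.34 RPKM in Atf3KO against 41.3 and 46.6 in Scramble, but lost its adjusted p without Atf3KO replicate 2 (log2 fold change -1.38, limma-trend adjusted p = 0.126) or either Scramble library (0.0536 and 0.0872), with a range of 0.00194 to 0.196 over all alternatives. Havcr2, which encodes TIM-3, was called lower at 0.335 and 1.17 RPKM in Atf3KO against 14.1 and 19.6 in Scramble.

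Genes of complement component C1q were among the most abundant that rose. C1qa measured 565 and 876 RPKM in Atf3KO against 82.7 and 64.6 in Scramble, C1qb 1236 and 1555 RPKM in Atf3KO against 371 and 238 in Scramble and C1qc 695 and 1103 RPKM in Atf3KO against 119.5 and 86.3 in Scramble. All 3 chains of the molecule were higher in each Atf3KO library than in either Scramble library. Their changes were 3.25 ± 0.29, 2.22 ± 0.27 and 3.09 ± 0.28 as deposited (limma-trend adjusted p = 9.65e-05, 3.81e-04 and 9.51e-05), and 2.39, 1.56 and 2.37 after GC correction. In the other edited lines C1qa measured 251 and 166 RPKM in JunKO and 723 and 503 in JunDKO. Of the 14 tested complement genes 5 rose, with Cfb (2.23 and 1.99) and Cfp (1.54 and 1.001), and 2 fell, Cd59a (-2.70 and -2.22) and Cr1l (-1.51 and -1.08), which protect cells from complement.

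Transcription factors of the macrophage lineage were led by Cebpd. Of 30 tested 5 rose and 3 fell. Maf, a factor of tissue-resident macrophages, measured 102 and 128 RPKM in Atf3KO against 30.04 and 43.5 in Scramble and rose by 1.63 ± 0.23 (limma-trend adjusted p = 8.38e-04). Id3, an inhibitor of helix-loop-helix factors, measured 41.7 and 90.4 RPKM in Atf3KO against 13.7 and 6.78 in Scramble. Ets2 (-1.25 and -1.32, as deposited and GC-corrected) fell with Bach1. Spi1, the gene of the lineage factor PU.1, measured 211 and 494 RPKM in Atf3KO against 188 and 144 in Scramble, a change of 0.97 ± 0.35 as deposited (limma-trend adjusted p = 0.0481), of 0.36 without Atf3KO replicate 2 (adjusted p = 0.305; range over all alternatives 0.00354 to 0.975) and of -0.01 ± 0.15 after GC correction (adjusted p = 0.967). Cebpb, at 70.1 and 300.3 RPKM in Atf3KO against 26.7 and 30.1 in Scramble, changed by 2.32 and, after GC correction, by 0.46 (limma-trend adjusted p = 0.0823).

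Secreted mediators of inflammation fell more often than they rose. Of 21 tested cytokines and growth factors 7 fell and 3 rose, with medians of -0.16 and -0.44, and the first turned to 0.20 without Atf3KO replicate 1 and 0.02 without Scramble replicate 1. Il1rn, the interleukin-1 receptor antagonist (chromosome 2, 24345291 to 24351491), measured 11.7 and 8.92 RPKM in Atf3KO against 89.5 and 87.6 in Scramble and changed by -2.99 ± 0.21 (limma-trend adjusted p = 3.70e-05). Tnf measured 6.49 and 5.79 RPKM in Atf3KO against 23.6 and 33.7 in Scramble, a change of -2.03 ± 0.23 (limma-trend adjusted p = 2.86e-04). Vegfa, the vascular growth factor, measured 4.09 and 4.33 RPKM in Atf3KO against 17.6 and 14.7 in Scramble and was also called lower. Both Atf3KO libraries were below both Scramble libraries in these genes. Il18 (-2.81 and -2.43, as deposited and GC-corrected) and Il15 (-3.92 and -3.47) fell, Grn (1.12 and 0.60) and Tnfsf13b, which encodes BAFF (1.04 and 1.02), rose, and Il1b did not pass in both fits (-0.96 and -0.68).

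Chemokines went both ways, with 4 of 13 tested that rose and 3 that fell. Pf4 measured 47.2 and 54.8 RPKM in Atf3KO against 10.7 and 21.0 in Scramble and Ccl6 69.3 and 62.04 RPKM in Atf3KO against 26.8 and 20.4 in Scramble, and both were called higher, as was Ccl12 (1.07 and 1.69, as deposited and GC-corrected), which lost its adjusted p without Atf3KO replicate 1 (log2 fold change 0.70, limma-trend adjusted p = 0.084) and without either Scramble library (range over all alternatives 4.77e-04 to 0.106). Cxcl10 (-2.59 and -2.30), Cxcl2 (-2.61 and -2.08) and Ccl7 (-1.19 and -0.63) fell. Ptgs2, the inducible cyclooxygenase, measured 0 and 0.093 RPKM in Atf3KO against 5.48 and 6.57 in Scramble, and fell (-2.74 and -1.97) at levels under the 16 RPKM that a call requires.

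Genes that remodel matrix fell more often than they rose against Scramble. Of 21 tested members of the extracellular matrix, metalloproteinase and TIMP list 9 fell and 2 rose, with medians of -0.79 and -0.67. Without Atf3KO replicate 2 the median as deposited was -0.69. Against JunKO and JunDKO 6 members were higher and 6 lower in both fits, with medians of -0.37 and -0.19. Mmp12, the macrophage elastase (chromosome 9, 7347374 to 7360461), measured 8.35 and 5.54 RPKM in Atf3KO against 119 and 142 in Scramble and changed by -4.06 ± 0.23 (limma-trend adjusted p = 1.85e-05). The study reports that knockdown of JUN and of JUND affected Mmp12 as well. Plaur, the urokinase receptor, measured 9.18 and 13.8 RPKM in Atf3KO against 36.6 and 29.5 in Scramble, a change of -1.46 ± 0.25 (limma-trend adjusted p = 0.0018). Mmp8 (-2.74 and -2.22, as deposited and GC-corrected), Mmp9 (-1.22 and -1.66), Mmp13 (-1.80 and -1.15) and Mmp19 (-0.79 and -0.67) fell with Thbs1 (-1.55 and -1.54), Lox (-1.34 and -0.76) and Lamc1 (-0.87 and -1.12). Adam15 (1.50 and 0.60) and Ecm1 (1.44 and 0.70) rose. Spp1, which encodes osteopontin and had the highest level of the list, measured 6314 and 4407 RPKM in Atf3KO against 10342 and 8932 in Scramble and passed only as deposited.

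Several feedback inhibitors of MAP kinase signalling fell. Of 35 tested members of the MAP kinase and DUSP list 11 fell and 3 rose. The phosphatase gene Dusp4 measured 10.1 and 9.07 RPKM in Atf3KO against 21.6 and 26.8 in Scramble and the RAS pathway inhibitor Spred1 9.23 and 10.8 RPKM in Atf3KO against 30.9 and 47.1 in Scramble, and both were called. Dusp1 (-2.49 and -2.86, as deposited and GC-corrected), Dusp5 (-1.56 and -2.64), Dusp6 (-0.67 and -0.59), Spred2 (-1.003 and -1.27) and the kinase genes Map3k8 (-1.36 and -0.94) and Map2k1 (-0.69 and -0.77) fell. Araf (1.18 and 0.77) and Mapk3, which encodes ERK1 (1.30 and 0.68), rose. All groups carry BRAF(V600E), which activates this cascade. In the NF-κB list 3 of 27 rose, the inhibitor genes Nfkbid (17.0 and 17.2 RPKM in Atf3KO against 4.67 and 3.51 in Scramble), Nfkbib (23.8 and 48.8 RPKM in Atf3KO against 10.7 and 5.59 in Scramble) and Tnip2 (1.50 and 1.15), and 6 fell, with Ikbkg, the regulatory subunit of the IκB kinase, at 9.34 and 7.28 RPKM in Atf3KO against 29.4 and 34.8 in Scramble.

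The letters that AP-1 and ATF proteins recognise were counted in the same promoter windows. The AP-1 element TGAGTCA or TGACTCA stood in 21 of 193 promoters of genes called lower (10.9%), in 5 of 284 of genes called higher (1.76%), in 362 of 8421 of tested genes (4.3%) and in 5.95% of all 27024. The cAMP response element TGACGTCA stood in 7 of 193 (3.63%), 10 of 284 (3.52%), 318 of 8421 (3.78%) and 2.03%. TGATGCAAT, the composite site of C/EBP and ATF proteins, stood in 0 of either called group, in 9 of 8421 promoters of tested genes (0.107%) and in 0.222% of all. Both strands were read. The AP-1 windows are shown for Mmp12, Il1rn and Plaur, which were called lower, and the cAMP response element windows for Plk2, called lower, and Nfkbid, called higher, with the match in capitals. The RefSeq starts used for Il1rn and Nfkbid lie upstream of the gene models that were measured.
Mmp12 TRE (chr9:7347320-7347346, plus strand, motif at -44 to -38): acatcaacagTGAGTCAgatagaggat
Il1rn TRE (chr2:24336709-24336735, plus strand, motif at -141 to -135): tctgctagacTGAGTCAcgcctctgga
Plaur TRE (chr7:24462404-24462430, plus strand, motif at -69 to -63): cccctggagcTGACTCActctttagca
Plk2 CRE (chr13:110394972-110394999, plus strand, motif at -62 to -55): gcgctcgccgTGACGTCAcgaggccccg
Nfkbid CRE (chr7:30422345-30422372, plus strand, motif at -51 to -44): gttagcgccgTGACGTCAgcgcgcggcg
Most called genes of either direction have neither element in this window, and no match says only that these letters are not in these 300 bases.

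Genes of the respiratory chain were higher more often than lower, but with exceptions of large size. Of 85 tested subunits 23 rose and 6 fell, with medians of 0.35 as deposited and 0.16 after GC correction. As deposited alone 29 were higher and 10 lower, with 17 higher without Scramble replicate 2, 3 lower without Scramble replicate 1 and 6 lower without Atf3KO replicate 2. Ndufb3 measured 4.27 and 4.82 RPKM in Atf3KO against 45.2 and 41.6 in Scramble and fell (-3.001 ± 0.20, limma-trend adjusted p = 3.10e-05), and Ndufa12 was listed at 0 in both Atf3KO libraries, whereas Ndufs5 measured 48.3 and 61.4 RPKM in Atf3KO against 10.3 and 2.32 in Scramble. Of their windows 32.6%, 34.9% and 87.5% have a copy elsewhere. Ndufs3 (1.84 and 1.59, as deposited and GC-corrected), Atp5g1 (1.54 and 1.13), Ndufc2 (1.32 and 1.42) and Cox6a2 (1.96 and 1.71) were among those called higher, while the abundant Atp5b measured 406 and 368 RPKM in Atf3KO against 425 and 372 in Scramble. Of the windows of Ndufs3 and Atp5g1, 62.8% and 92.7% have a copy elsewhere. Subunits of complex I, Ndufb3, Ndufa12 and Ndufs5 among them, thus had values in opposite directions.

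Ribosomal protein genes went both ways, beside a background of 14.7% of tested genes that rose and 15.4% that fell. Their shares that fell were near this background, and those that rose slightly above it. Of 77 tested cytosolic ribosomal proteins 15 rose and 12 fell, and of 75 mitochondrial ones 15 rose and 13 fell. Rplp2 measured 302 and 606 RPKM in Atf3KO against 63.3 and 48.5 in Scramble and Rpl13 7.38 and 5.38 RPKM in Atf3KO against 49.8 and 70.6 in Scramble. A copy elsewhere was found for 84.1% and 88.1% of their windows. Rps29 was listed at 0 in both Scramble libraries and at 11.8 and 23.3 RPKM in Atf3KO, and Rpl31, with 46.9% of windows and 100% of junction windows copied, at 0 in both Atf3KO libraries. Among mitochondrial ones Mrpl24 measured 7.98 and 7.34 RPKM in Atf3KO against 45.7 and 50.3 in Scramble, Mrps18c 8.29 and 9.51 RPKM in Atf3KO against 36.7 and 50.9 in Scramble and Mrpl55 26.8 and 34.4 RPKM in Atf3KO against 9.36 and 6.21 in Scramble. In ribosome biogenesis 8 of 35 fell and 2 rose. Wdr12 measured 1.21 and 1.37 RPKM in Atf3KO against 14.1 and 19.7 in Scramble, Npm1, with 67.3% of windows copied, 143 and 102 RPKM in Atf3KO against 347 and 420.1 in Scramble, and Nolc1, called higher, 112 and 118 RPKM in Atf3KO against 52.4 and 49.3 in Scramble.

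Protein turnover had single genes of large change. Of 47 tested proteasome genes 9 fell and 3 rose. Psme2, the β subunit of the interferon-induced activator, measured 18.3 and 13.7 RPKM in Atf3KO against 83.3 and 78.2 in Scramble and fell (-2.28 ± 0.21, limma-trend adjusted p = 1.01e-04), while Psme1, its partner, rose (1.09 and 0.85, as deposited and GC-corrected). A copy elsewhere was found for 71.2% of the windows of Psme2. Psmd5 and Psme4 were also called lower. In autophagy Gabarapl2 was listed at 0 in both Atf3KO libraries and at 10.6 and 15.0 RPKM in Scramble. Of its windows 90.5%, and all of those over junctions (100%), are copied elsewhere. Of ubiquitin genes Ube2d3 measured 20.8 and 14.9 RPKM in Atf3KO against 103 and 131 in Scramble and Cul3, the scaffold of the ligase that degrades NRF2, 11.3 and 6.00 RPKM in Atf3KO against 36.1 and 41.7 in Scramble, and both were called lower.

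Of 17 tested subunits of the vacuolar proton pump 4 fell (Atp6v1a, Atp6v1c1, Atp6v1e1 and Atp6v1f, the last with 52.1% of windows copied) and 0 rose, with medians of -0.62 and -0.41. Lysosomal hydrolases leaned the other way, with 11 of 41 that rose and 3 that fell. Sgsh, a heparan sulfate sulfamidase, measured 16.4 and 17.8 RPKM in Atf3KO against 3.84 and 2.17 in Scramble and Pla2g15, the lysosomal phospholipase, 37.5 and 38.2 RPKM in Atf3KO against 12.1 and 9.74 in Scramble. Both were called higher, and Glb1 (1.18 and 0.91, as deposited and GC-corrected), Naglu (1.48 and 0.59) and Man2b1 (1.25 and 0.98) rose. The cathepsin genes Ctss (-0.83 and -0.50), Ctsh (-2.17 and -2.28) and Ctsk (-1.03 and -0.92) fell. Of 59 genes of the actin cytoskeleton 11 fell and 3 rose, with Actr3, of the Arp2/3 complex and with 66.4% of windows copied, at 70.6 and 62.9 RPKM in Atf3KO against 169.8 and 209 in Scramble. Of 143 Rab and sorting genes 23 fell and 10 rose, with Rab18 at 3.21 and 3.46 RPKM in Atf3KO against 22.4 and 34.5 in Scramble and Rab7b at 12.3 and 11.9 RPKM in Atf3KO against 32.9 and 37.6 in Scramble.

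Of 17 tested members of the MHC class I list 3 rose and 0 fell, with medians of 0.59 and 0.29, while B2m, the shared light chain, measured 1849.5 and 1297 RPKM in Atf3KO against 1908 and 1826 in Scramble. Of 4 tested MHC class II genes 1 rose, H2-DMb2, which was listed at 0 in Scramble and at 6.72 and 4.97 RPKM in Atf3KO, and Cd74 measured 115 and 155 RPKM in Atf3KO against 87.6 and 62.1 in Scramble. Against JunKO and JunDKO 7 members of the class I list were higher and 0 lower in both fits, with a median of 0.74 as deposited.

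Lists of receptors that sense signals held genes that rose and genes that fell. In the Fc receptor and costimulatory lists both shares were near the background. Of 24 tested Toll-like receptors and adaptors 5 fell, Tlr1 (-1.28 and -0.82, as deposited and GC-corrected), the adaptor genes Tirap (-1.55 and -1.25) and Tollip (-0.60 and -0.61), Tlr13 and Irak3, and 2 rose, Traf6 (0.82 and 1.17) and Unc93b1, the chaperone of endosomal receptors (1.50 and 0.94). Of 22 Fc receptors and their adaptors 3 rose and 3 fell, with Fcgr3 (0.76 and 0.83) higher and Hcst, which encodes the adaptor DAP10, lower (-2.86 and -3.49). Of 14 costimulatory genes Cd40 (1.31 and 1.17) and Pvr (0.87 and 0.99) rose, and Cd80 (-2.75 and -2.43) and Havcr2 fell. Of 21 integrin and adhesion genes 6 fell, with Itga5 (-0.74 and -1.40), Itgav (-1.23 and -0.72) and Itgb1 (-1.11 and -0.61) of the fibronectin receptors among them, and 4 rose, with Itgal (0.96 and 0.70), a subunit of the leukocyte integrin LFA-1.

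Lists of unusual GC content moved with the GC correction. Zinc finger genes of the Zfp family, whose median GC content is 45.3%, had 45 of 255 tested members higher and 86 lower as deposited, and 60 higher and 53 lower after GC correction, with medians of -0.21 and 0.01. In both fits 33 were higher and 44 lower, near the background. Replication-dependent histones, whose median GC content is 59.3%, had 6 tested members, of which 3 rose and 1 fell, and medians of 1.82 and 0.84. The one that fell was Hist2h2be, listed at 0 in both Atf3KO libraries and at 2.72 and 2.41 RPKM in Scramble. Hist1h2bc measured 87.0 and 76.0 RPKM in Atf3KO against 16.5 and 16.9 in Scramble and was called, with 50.4% of windows copied, while Hist1h1c changed by 1.47 as deposited and 0.25 after GC correction. The polycomb gene Suz12 (7.94 and 4.16 RPKM in Atf3KO against 20.1 and 29.4 in Scramble) and the histone demethylase gene Kdm3a (5.45 and 5.84 RPKM in Atf3KO against 16.4 and 16.3 in Scramble) were called lower. Of 277 tested noncoding RNA models 58 rose and 47 fell. Snhg20 measured 64.3 and 88.0 RPKM in Atf3KO against 6.06 and 19.5 in Scramble and lost its adjusted p after GC correction without Atf3KO replicate 1 (log2 fold change 1.81, limma-trend adjusted p = 0.0621, in a range of 6.69e-04 to 0.0621 over all alternatives). Malat1, the most abundant of its list, measured 292 and 222 RPKM in Atf3KO against 217 and 351 in Scramble.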

How the data were processed

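The table deposited by the authors gives RPKM per RefSeq gene model (mm10) in 13 of the 17 samples, made from polyA RNA-seq reads aligned, per the study's methods, with STAR. The submitters' processing notes also name HOMER, and versions are not given in the sources used here. RPKM divides reads over exons by exonic length and library total, so a gene with exons copied elsewhere, or with unusual GC content, can be miscounted in 1 library more than in another. The 8 iBMDM columns were used, 5 columns of other macrophages and 4 GRO-seq samples were not used, and 0 value columns were unmapped. Depth is the number of reads recovered from the step size of the values, and it limits precision for low genes most.

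Tested were the 10414 of 24453 models that have at least 200 bases of exon and average 1 RPKM or more in the 8 iBMDM columns. The study tested read counts, which are not used here, so limma-trend (limma 3.58.1 in R 4.3.3; Python 3.11.15, numpy 2.4.6, pandas 2.3.3, matplotlib 3.10.9) was fitted to log2(RPKM + 1), with 1 coefficient for each of the 4 groups, no covariate and Benjamini-Hochberg adjustment over all tested models. The thresholds of the study (adjusted p under 0.05, 2-fold, 16 RPKM) were kept. For the GC-corrected fit each library's deviation from the 8-library mean was fitted with a natural spline of GC content (5 degrees of freedom) and the fit subtracted. Copies are exact matches of 31-base windows of a transcript elsewhere in the genome. The fits were also run on simulated data with known changes, in which both Atf3KO libraries had the same GC slope. The unequal trends of the real Atf3KO libraries were not simulated.

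The members, the 51 gene lists and the tests were chosen with earlier results of these data known. Genes named by rule were Atf3 and the macrophage markers, the 12 largest changes in each direction, up to 4 members called in both fits and up to 2 of the highest level in each list. Every other gene was named, to complete a count or show a role, after its values were seen. Alternatives covered the pseudocount, filters, scaling, thinned reads, limma-voom on recovered reads, GC and length correction, a replicate block and leaving out each library. Some genes of the rule and of the lists are not reported here.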

Additional observations from a re-analysis of the deposited data

How the results depend on the processing

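In the comparison of Atf3KO with Scramble 1309 genes were called as deposited. The count was 759 after GC correction, 753 after GC and length correction, 763 with a replicate block and GC correction, 3081 without the 16 RPKM minimum and 218 at a log2 fold change of at least 2, where the first 3 tested fewer genes or removed a trend and the last 2 changed the threshold itself. Against the mean of JunKO and JunDKO 1010 genes were called, and the same settings gave 588, 594, 589, 2697 and 132. Leaving out 1 library gave 964 (without Atf3KO replicate 2) to 1780 (without Atf3KO replicate 1) calls as deposited, 755 to 808 after GC correction, and 715 to 1480 in the second comparison. Genes with an adjusted p under 0.05 in the second comparison numbered 4928, and 3224 without Atf3KO replicate 2. The genes followed through the alternatives were Atf3, the macrophage markers, the largest changes and the called list members named by rule. Other genes named in the text were not followed. Of the genes followed that had an adjusted p under 0.05 as deposited, 1 reversed. Spi1 had a log2 fold change of 0.97 as deposited and of -0.00878 after GC correction, also with the replicate block and without each JunKO or JunDKO library, of -0.214 after GC correction without Atf3KO replicate 2 and of -0.0501 without Scramble replicate 2. Over the genes followed and all alternatives 4388 values kept their direction and their side of the threshold, 87 lost their adjusted p and 4 gained it. Among these were Psmg1, Pdgfb, Snrpc, Snrpg, Hnrnpa0 and Snhg3, each without 1 library. The median changed sign after GC correction in 11 of the 51 gene lists, at equal library medians in 2 and after quantile normalization in 3, and the cause of the calls lost was not tested.

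Same-numbered libraries are not stated to share a culture. The correlation of their deviations from the group means was -0.27 between Atf3KO and Scramble, -0.29 and -0.17 between Atf3KO and JunKO or JunDKO, and 0.24 to 0.29 among the other 3 groups over 10414 genes, so the pairing was not established. With the replicate block 1297 genes were called and with the numbers of the Atf3KO libraries crossed 1333, where genes under an adjusted p of 0.05 numbered 5666 against 4591, and the block moved no count of calls by over 1.5 times, with or without GC correction. The crossed block, the settings without a JunKO or JunDKO library, and the search for TGACNNNGC and TCACNCCA were added after the data were seen. Depth limits low genes most, and with 2 libraries a group, all Atf3KO libraries on 1 side of the GC trend, the edit and the library trend cannot be told apart.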
